A study of Mus musculus with 2 samples.

Results

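The genes described here encode regulators of pre-mRNA splicing in mouse subcutaneous fat, together with the transcripts that those genes make themselves. They were chosen by symbol: the SR protein genes (Srsf followed by a number), all genes whose symbol begins with Hnrnp, and the Mbnl, Celf, Rbfox, Ptbp, Esrp, Qk, Tra2, Nova and Khdrbs1 to Khdrbs3 genes. The rule found 56 of 43346 annotated genes, with 391 of 103639 transcripts. No measured value entered the rule. Polyadenylated RNA was sequenced as 2 libraries, biological replicates 1 and 2 of 1 group: C57BL/6J adults aged 8 weeks, male and female littermates pooled, with no treatment, transgene or mutation named. Both replicates carry the same donor record but separate tissue sample records, and how many animals went into each is not stated. The series therefore holds no comparison between conditions, and the questions it can answer are how much of each regulator the tissue contained, in which isoforms, and how far the libraries differed.

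Splicing regulators bind short motifs in pre-mRNA and decide which exons enter the mature message. SR proteins mostly bind exonic enhancers and help the spliceosome to recognise an exon, hnRNP and PTB proteins often repress exons, and the Mbnl, Celf, Rbfox, Nova and Esrp families act in a more tissue-restricted way. Many of these genes also regulate themselves: their pre-mRNA carries a poison exon (an exon whose inclusion brings a premature stop codon), a retained intron, or an exon whose skipping shifts the frame, and such transcripts are destroyed by nonsense-mediated decay (NMD) or stay in the nucleus.

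Each library held a similar number of estimated reads, 54752739 in replicate 1 and 58687668 in replicate 2, of which the 56 genes took 280540 and 176366. All 8 white adipocyte markers examined were present in both libraries, summing to 6075 TPM in replicate 1 and 23275 TPM in replicate 2 (TPM, a level corrected for transcript length and relative to all transcripts of the library). The libraries also differed in markers of some other cell types. Scaled by TMM, 8 of 8 glandular epithelium markers were over 2-fold higher in replicate 1 (summed TPM 775 in replicate 1 and 14.2 in replicate 2). So were 6 of 6 smooth muscle markers (5869 and 655 TPM) and 6 of 6 cell division genes (77.5 and 11.6 TPM). In replicate 2, 8 of 8 adipocyte markers were over 2-fold higher. Other lists were mixed: 2 of 5 fibroblast markers were over 2-fold higher in replicate 1. In the direction of replicate 2 were 2 of 5 endothelial and 2 of 6 nerve markers. None of the 4 immune markers and the 1 skeletal muscle marker with enough counts was over 2-fold apart. Neuron markers are given further on. In whole tissue, fewer cells of a type and less RNA per cell cannot be told apart.

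The exons below are some of the 23 exons, in 14 members, that other transcripts of the gene skip and that passed the minimums given further on. They were chosen after their values were seen, and whether they alter the gene's product was not tested. The 197 nt exon of Celf2 and the 120 nt exon of Hnrnpa2b1, the furthest apart between the libraries, are not shown. The use of each exon in each library is given further on. Sequences are from GENCODE M21 transcripts on GRCm38, the build the files call mm10, and run 5′ to 3′ on the gene's strand. The first set holds some of the exons that carry an in-frame stop codon when included. Each is shown from the exon's start to that stop codon, which is in capitals. They lie at chr2:162932815-162932966 (Srsf6, + strand), chr7:28817335-28817393 (Hnrnpl, + strand), chr17:80044976-80045022 (Hnrnpll, − strand) and chr3:158024209-158024231 (Srsf11, − strand).
Srsf6 poison exon: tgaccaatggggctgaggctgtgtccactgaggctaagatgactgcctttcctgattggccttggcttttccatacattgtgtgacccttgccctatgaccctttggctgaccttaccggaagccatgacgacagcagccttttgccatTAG
Hnrnpl poison exon: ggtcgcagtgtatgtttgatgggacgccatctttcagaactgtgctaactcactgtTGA
Hnrnpll poison exon: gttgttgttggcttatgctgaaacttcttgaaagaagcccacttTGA
Srsf11 poison exon: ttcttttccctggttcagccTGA

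The second set holds whole exons that change the reading frame or add codons. The 34 nt exon of Ptbp1 (chr10:79862014-79862047, + strand) and the 41 nt exon of Celf2 (chr2:6554280-6554320, − strand) are not multiples of 3 nt: every transcript that skips the Ptbp1 exon, and the transcript that includes the Celf2 exon, is annotated as an NMD target. The Ptbp1 exon of 78 nt (chr10:79860117-79860194), the Mbnl1 exons of 54 nt (chr3:60614683-60614736) and 36 nt (chr3:60621423-60621458), the Hnrnpk exon of 72 nt (chr13:58396188-58396259, − strand) and the Hnrnpab exon of 141 nt (chr11:51601750-51601890, − strand) keep the frame, and add 26, 18, 12, 24 and 47 codons. All lie in coding sequence.
Ptbp1 34 nt exon: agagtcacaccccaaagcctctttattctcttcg
Celf2 41 nt exon: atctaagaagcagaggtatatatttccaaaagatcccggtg
Ptbp1 78 nt exon: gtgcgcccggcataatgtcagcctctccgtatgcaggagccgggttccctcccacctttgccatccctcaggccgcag
Mbnl1 54 nt exon: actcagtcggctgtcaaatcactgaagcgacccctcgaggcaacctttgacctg
Mbnl1 36 nt exon: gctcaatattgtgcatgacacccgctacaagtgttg
Hnrnpk 72 nt exon: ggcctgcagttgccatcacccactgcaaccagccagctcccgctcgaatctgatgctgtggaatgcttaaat
Hnrnpab 141 nt exon: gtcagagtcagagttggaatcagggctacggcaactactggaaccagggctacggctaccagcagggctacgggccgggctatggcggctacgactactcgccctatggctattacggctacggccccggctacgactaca

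Most splicing regulators were expressed in the fat pad. A TPM of at least 1 was reached in both libraries by 46 of the 56 genes (82.1%), against 55.5% of all protein-coding genes. A further 5 reached it in replicate 1 alone, none in replicate 2 alone, and 5 (Celf3, Celf5, Celf6, Rbfox1 and Khdrbs2) in neither. The 56 genes summed to 4104 TPM in replicate 1 and 2043 TPM in replicate 2 (3073 ± 1457, SD, n = 2). The hnRNP genes held the largest part, 1757 and 782 TPM, followed by the SR protein genes with 1457 and 752 TPM and the 3 PTB genes with 404 and 139 TPM. These 3 families were higher in replicate 1 on this scale, whereas the Celf genes summed to 117 TPM in replicate 1 and 132 TPM in replicate 2.

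**Figure D1:**
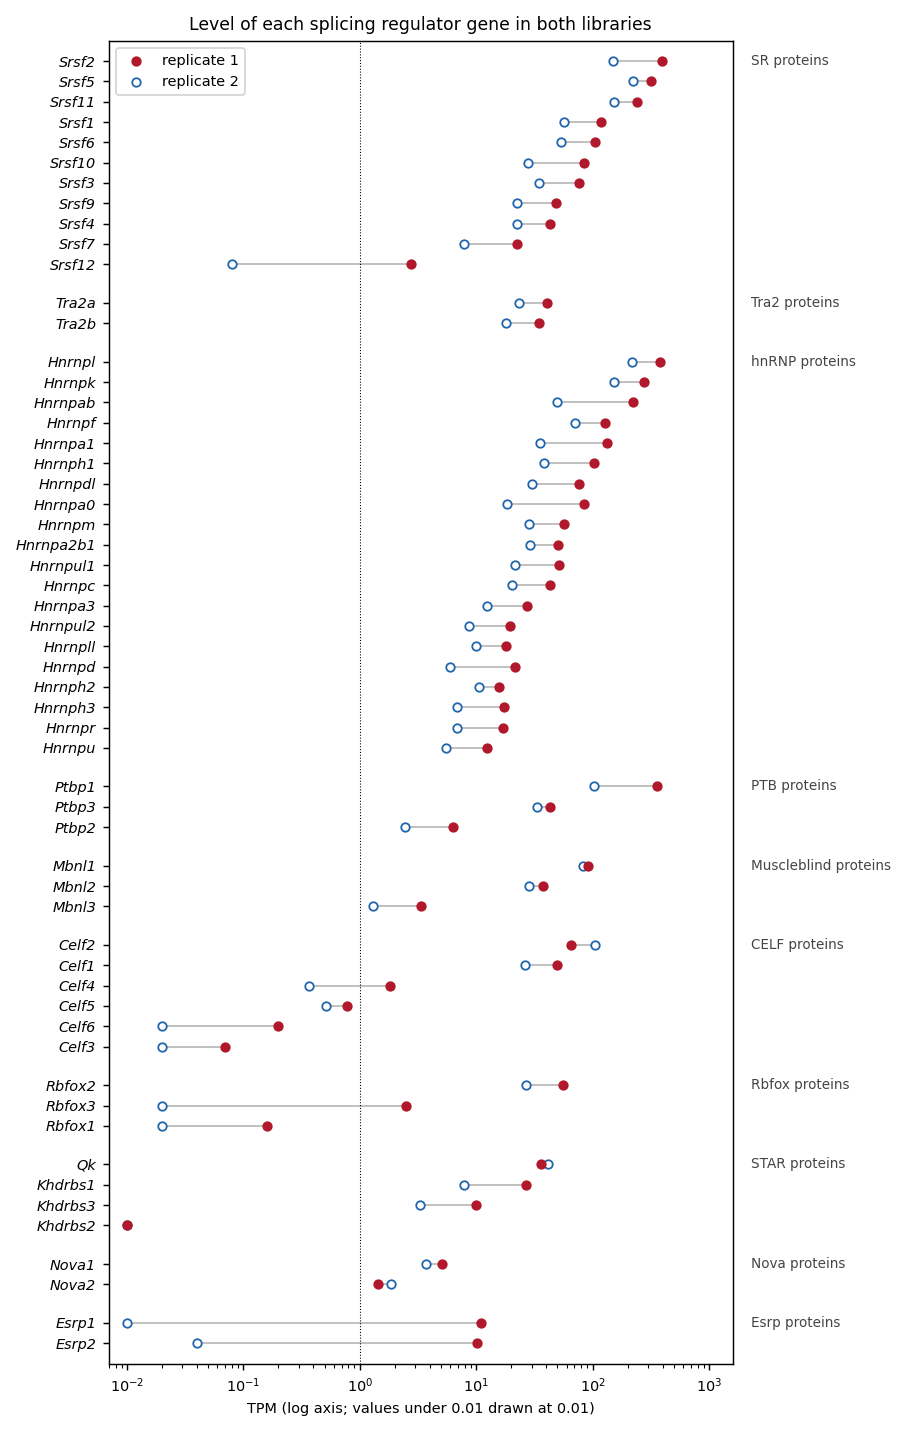
TPM of each of the 56 splicing regulator genes on a log axis, grouped by family, with replicate 1 as filled and replicate 2 as open points joined by a line; the dotted line marks 1 TPM. The SR, hnRNP and PTB genes lie at or above 1 TPM in both libraries except Srsf12, and only Celf2, Qk and Nova2 have the higher TPM in replicate 2.

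TPM values depend on what else a library holds, so the libraries were compared on counts scaled by TMM, and each ratio of replicate 1 over replicate 2 is given with its 95% counting interval. A gene was compared if its scaled counts averaged 100 or more, and called if that interval lay wholly beyond 2-fold. The average spans both libraries, so a gene nearly absent from 1 library passes only if it is far higher in the other. Esrp1, Esrp2 and Rbfox3, with 2 or 3 counts in replicate 2, passed in this way, so their calls were fixed by the filter. Of 50 splicing regulators with enough counts, 7 (14.0%) were over 2-fold higher in replicate 1, where 12.5% of all 13403 genes compared were, and 1 (2.00%) was over 2-fold higher in replicate 2, where 10.6% of all genes were. The median log2 ratio of the 50 was 0.47, against -0.04 over all genes compared, and 39 of the 50 were above 0. The 42 that were not called lay between -1.10 and 1.05. With TMM the share called in replicate 1 was thus near that of all genes, while the middle of the list sat higher. With total counts or spike-in counts in place of TMM the median over all genes was 0.47 and 0.42, and 20 and 19 of the 50 members were called in replicate 1 and none in replicate 2. Of all genes compared, 22.3% and 20.9% were then called in replicate 1, and 4.4% and 4.88% in replicate 2. Calls in replicate 1 made up 83.5% and 81.1% of all calls, against 54.2% with TMM. The median of the members lay 0.51 above that of all genes, a distance that no scaling of this kind can alter. Srsf5, Srsf11, Hnrnpl, Hnrnph2, Ptbp3, Mbnl2 and Nova1 had ratios below 1 with TMM and above 1 with total or spike-in counts, and the other 4 below 1 (Celf2, Qk, Mbnl1 and Nova2) stayed below it. No p-value is given, since each side is 1 library.

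**Figure D2:**
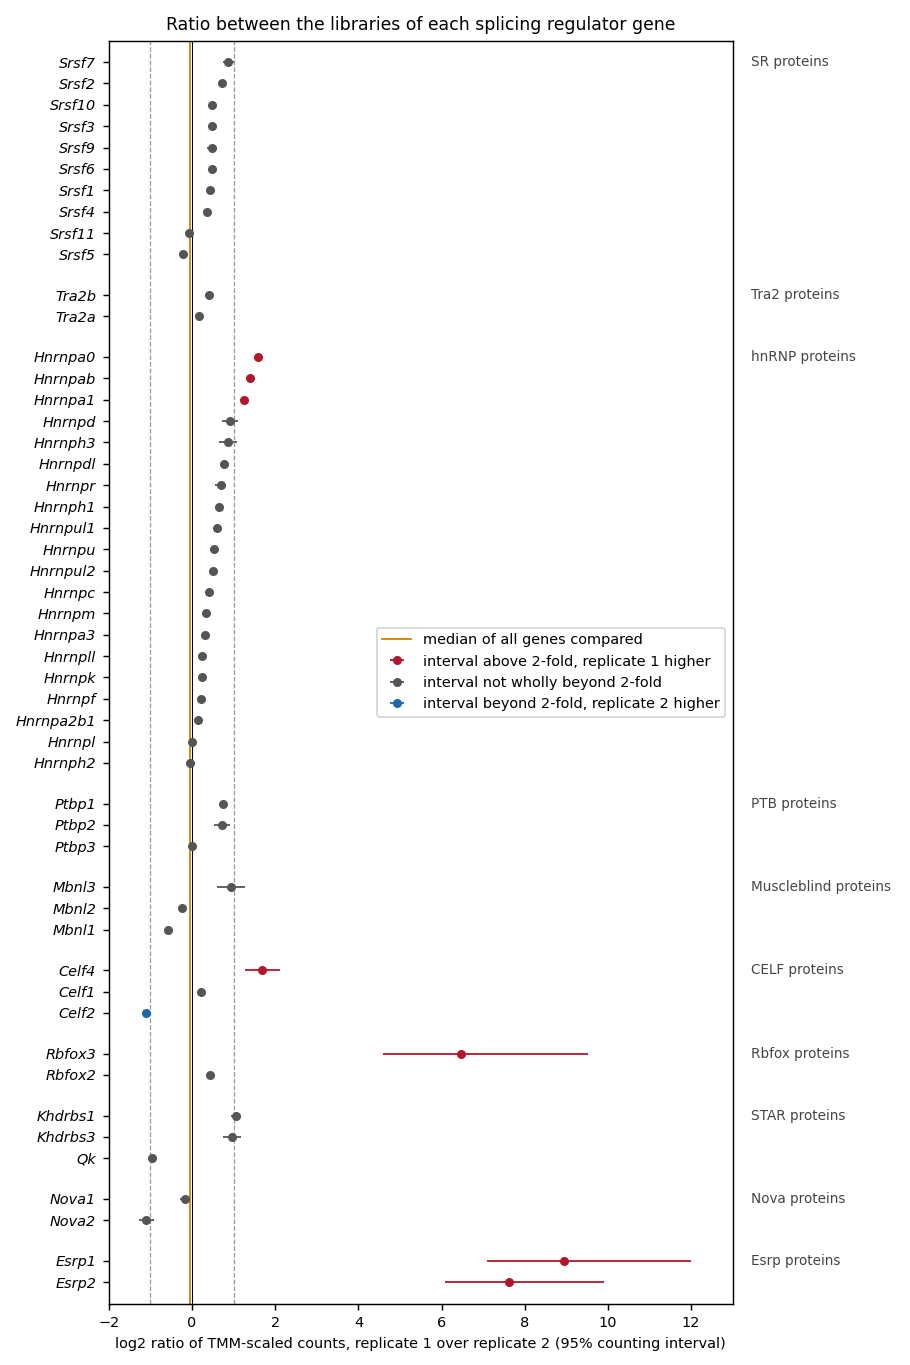
Log2 ratio of TMM-scaled counts, replicate 1 over replicate 2, for the 50 genes compared; bars are 95% counting intervals, dashed lines mark 2-fold and the orange line the median of all genes. Red points (replicate 1 higher) are Hnrnpa0, Hnrnpab, Hnrnpa1, Celf4, Rbfox3, Esrp1 and Esrp2, and the blue point (replicate 2 higher) is Celf2.

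Among the SR protein genes, Srsf2, whose protein activates exons and marks nuclear speckles, had 395 TPM in replicate 1 and 150 TPM in replicate 2. Srsf5 had 321 and 223 TPM, and Srsf11 had 241 and 153 TPM. Srsf2 was the highest of the family in replicate 1 and Srsf5 in replicate 2. None of the 10 SR protein genes with enough counts was called with TMM. With total or spike-in counts 2 were called in replicate 1, where 22.3% and 20.9% of all genes compared were. With TMM the log2 ratios of these 10 genes lay between -0.23 for Srsf5 and 0.87 for Srsf7, a small SR protein with 22.4 TPM in replicate 1 and 7.85 TPM in replicate 2. Srsf1, the founding member of the family, had 118 and 57.0 TPM, and Srsf6 had 104 and 53.3 TPM. Srsf10, an SR protein that represses splicing when dephosphorylated and has been studied in fat cell differentiation, had 84.3 TPM in replicate 1 and 28.1 TPM in replicate 2; its ratio of scaled counts was 1.40 (1.32 to 1.49). Its TPM, which are not TMM-scaled and depend on transcript length, lay further apart than its scaled counts. Srsf3, Srsf9 and Srsf4 lay between 22.4 TPM (Srsf9 in replicate 2) and 75.97 TPM (Srsf3 in replicate 1). Srsf12 had 113 counts in replicate 1 and 3 in replicate 2 (2.76 and 0.08 TPM, ratio 28.3, interval 9.44 to 139) and fell below the minimum count. The SR-like activators Tra2a and Tra2b had 40.9 and 34.9 TPM in replicate 1, against 23.4 and 17.9 TPM in replicate 2, with ratios of 1.12 (1.05 to 1.19) and 1.32 (1.24 to 1.40).

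All 20 hnRNP genes exceeded 5 TPM in both libraries. Hnrnpl, which binds CA-rich repeats, led with 379 TPM in replicate 1 and 220 TPM in replicate 2, and its scaled counts were equal within counting error (ratio 0.999, interval 0.975 to 1.02). Hnrnpk, which binds C-rich tracts, followed with 278 and 152 TPM (ratio 1.18, 1.15 to 1.21). The called hnRNP genes were Hnrnpa0, Hnrnpab and Hnrnpa1, or 3 of 20, where 12.5% of all genes compared were called in replicate 1. With total or spike-in counts 9 of 20 were called, where 22.3% and 20.9% of all genes compared were. Hnrnpa0 had 85.1 TPM in replicate 1 and 18.3 TPM in replicate 2, a ratio of 2.98 (2.84 to 3.14). Hnrnpab had 222 and 49.5 TPM, a ratio of 2.62 (2.53 to 2.73). Hnrnpa1, a general repressor of exon recognition, had 132 and 35.6 TPM, a ratio of 2.38 (2.28 to 2.49). Its relatives Hnrnpa2b1 and Hnrnpa3 were closer between libraries: Hnrnpa2b1 had 50.7 and 29.0 TPM (ratio 1.10, 1.06 to 1.15) and Hnrnpa3 27.4 and 12.3 TPM (ratio 1.25, 1.19 to 1.32). For Hnrnph2 and Hnrnpl the point ratio was below 1, and for the other 18 hnRNP genes it was above 1 with TMM; all 20 were above 1 with total or spike-in counts. Hnrnpd and Hnrnph3, with ratios of 1.88 (1.65 to 2.16) and 1.82 (1.58 to 2.12), had intervals that included 2-fold. The hnRNP genes in the middle of the order were Hnrnpf (129 TPM in replicate 1 and 71.2 TPM in replicate 2), Hnrnph1 (104 and 38.7), Hnrnpdl (77.1 and 30.4), Hnrnpm (56.5 and 28.7), Hnrnpul1 (51.4 and 21.5) and Hnrnpc (42.9 and 20.5). Hnrnpul2, Hnrnpll, Hnrnph2, Hnrnpr and Hnrnpu, the large nuclear-scaffold hnRNP, lay between 5.52 TPM (Hnrnpu in replicate 2) and 19.5 TPM (Hnrnpul2 in replicate 1). Several of these genes have near-identical processed copies in the genome, and reads were divided among copies by a model; the model's own uncertainty of a gene's count was at most 2.27% of that count (posterior SD) over the 50 genes compared.

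Of the PTB genes, which encode repressors that bind pyrimidine tracts, Ptbp1 had 355 TPM in replicate 1 and 103 TPM in replicate 2. In scaled counts its ratio was 1.68 (1.63 to 1.72), below the bound. Ptbp3 had 43.2 and 33.1 TPM and a ratio of 0.995 (0.956 to 1.04). Ptbp2, the neuronal paralog, was the lowest with 6.28 and 2.45 TPM (ratio 1.64, 1.44 to 1.87). The order Ptbp1, Ptbp3, Ptbp2 was the same in both libraries.

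Mbnl and Celf proteins often act in opposite directions on the same exons in muscle. Mbnl1 had 92.3 TPM in replicate 1 and 82.9 TPM in replicate 2, a ratio of 0.674 (0.655 to 0.695) in scaled counts. Mbnl2 had 37.8 and 28.5 TPM (0.850, 0.819 to 0.882) and Mbnl3 3.39 and 1.31 TPM (1.91, 1.52 to 2.42). Celf2 was the splicing regulator called in the direction of replicate 2: it had 64.7 TPM in replicate 1 and 105 TPM in replicate 2, a ratio of 0.464 (0.451 to 0.478). The call was lost with total counts (log2 -0.59) and with spike-in counts (log2 -0.65). Celf1 had 49.8 and 26.2 TPM (ratio 1.17, 1.13 to 1.20). Celf4 was called in replicate 1 with 257 and 60 counts (1.83 and 0.37 TPM, ratio 3.22, 2.42 to 4.33), and Celf3, Celf5 and Celf6 had at most 82 counts and 0.78 TPM in either library.

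The STAR proteins bind RNA through an extended KH domain. Qk, named for the quaking mouse and needed for myelin, had 36.3 TPM in replicate 1 and 41.5 TPM in replicate 2, with a ratio of 0.515 (0.499 to 0.532) whose interval included 2-fold. Khdrbs1 (Sam68), whose loss in mice reduces fat, had 26.7 and 7.88 TPM, a ratio of 2.07 (1.92 to 2.23). Khdrbs3 had 629 counts in replicate 1 and 243 in replicate 2 (ratio 1.94, 1.67 to 2.26), and Khdrbs2 had 1 count in replicate 1 and 0 in replicate 2. Of the neuronal Nova genes, Nova1 had 5.08 and 3.68 TPM (ratio 0.884, 0.815 to 0.959) and Nova2 1.44 and 1.84 TPM (ratio 0.467, 0.412 to 0.528). Rbfox2, the widely expressed member of its family, had 55.6 and 26.6 TPM (ratio 1.35, 1.32 to 1.39).

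The widest separations were of regulators known from other tissues. Esrp1 and Esrp2 direct the epithelial pattern of splicing, for example of Fgfr2 and Cd44. Esrp1 had 1321 counts in replicate 1 and 2 in replicate 2 (11.1 and 0.01 TPM, ratio 496, 137 to 4100), and Esrp2 had 792 and 3 counts (10.2 and 0.04 TPM, ratio 198, 67.6 to 963). All 8 glandular epithelium markers were also higher in replicate 1, by ratios between 14.5 for the keratin gene Krt19 (223 TPM in replicate 1 and 10.3 TPM in replicate 2) and 334 for the cadherin gene Cdh1 (58.8 and 0.11 TPM). Rbfox3, whose protein NeuN labels neurons, had 236 counts in replicate 1 and 2 in replicate 2 (2.52 and 0.02 TPM, ratio 88.6, 24.3 to 736). Of the other 5 neuron markers, all low, Syt1 was also higher in replicate 1 (48 counts in replicate 1 and 0 in replicate 2). Tubb3 had 63 and 50 counts, Stmn2 156 and 141, Snap25 0 and 7, and Elavl4 1 and 18. In scaled counts the ratio was 0.946 (0.642 to 1.40) for Tubb3 and 0.831 (0.657 to 1.05) for Stmn2. The epithelial markers were chosen with earlier results of these data known, and some passed the count minimum only through replicate 1. The part that the mixture of cell types had in any of these ratios was not tested.

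The wider splicing machinery is read against the same shares over all genes, 12.5% called in replicate 1 and 10.6% in replicate 2 with TMM. With total and spike-in counts those shares were 22.3% and 20.9% in replicate 1, and 4.4% and 4.88% in replicate 2. Of 44 core spliceosome genes, all with at least 1 TPM in both libraries, 1 was over 2-fold higher in replicate 1 and none in replicate 2, and their median was 0.26 on the log2 scale (5 were called with total counts and 3 with spike-in counts). With TMM the called gene was Snrpf, a protein of the Sm ring, with 38.2 TPM in replicate 1 and 9.56 TPM in replicate 2 (ratio 2.57, 2.24 to 2.96). The most abundant were Prpf19 (297 and 157 TPM), Snrpb (191 and 107 TPM) and Snrpa (190 and 81.1 TPM). Of 10 kinases and carriers of SR proteins, 1 was higher in replicate 1: Srpk3, the muscle SR protein kinase, with 11.1 and 1.01 TPM (ratio 6.20, 4.72 to 8.29). Clk1 had 69.1 and 56.8 TPM, Clk2 83.3 and 38.2 TPM, and the SR protein importer Tnpo3 45.9 and 38.3 TPM. The median of these 10 was 0.01 with TMM and 0.52 with total counts. Among 16 NMD factors none was called in either direction (median 0.16), with Eif4a3 (105 and 60.9 TPM), Smg5 (77.9 and 44.0 TPM) and Smg9 (46.0 and 30.8 TPM) the most abundant. Of 47 other splicing regulators with enough counts, 6 were over 2-fold higher in replicate 1 (9 with total or spike-in counts) and none in replicate 2, and the median was 0.35. These were Rbm24 (29.5 and 0.79 TPM) and Rbm20 (4.53 and 0.28 TPM), which act in heart and skeletal muscle, the stem cell and neural regulator Msi1 (16.9 and 0.79 TPM), Srrm4 (1.48 and 0.38 TPM), which promotes neuronal microexons, Raly (437 and 114 TPM) and Rnps1 (121 and 34.3 TPM). Srrm2, a scaffold of nuclear speckles, was among the most abundant of that list, with 511 TPM in replicate 1 and 293 TPM in replicate 2. Of 6 skeletal muscle markers, Acta1 had a ratio of 1.13 (1.10 to 1.17), and the rest fell below the minimum count. Of these, Ckm had 146 counts in replicate 1 and 17 in replicate 2, and Tnnt3 87 and 6. Myh2 had 7 and 11, Mylpf 5 and 5, and Myh4 0 and 0.

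A large part of the transcripts of these genes was of kinds that the annotation marks as NMD targets or as retaining an intron. The transcript models were summed by their M21 type, as a percent of the gene's TPM, over the 39 members with at least 2 transcripts and 100 counts in both libraries. Their median share was 12.3% in replicate 1 and 7.75% in replicate 2 (10.9% as the median of the means), against 1.88% and 1.33% (1.85%) over all 8720 such protein-coding genes. Summed over genes, these transcripts held 25.01% of the members' TPM in replicate 1 and 24.9% in replicate 2, against 14.0% and 14.9% over all those genes. As shares of reads, which do not favour short models, the sums were 18.5% and 18.9% for the members and 7.97% and 8.45% for all. By TPM, a share of at least 50% was found in 6 of 39 members (15.4%), against 7.56% of all genes, and a share of 0 in 14 of 39 (35.9%), against 40.1% of all genes. A share of 0 can also mean that the gene has no model of these types, which was not examined. The members had a median of 7 annotated transcripts and all such genes 5. These types made up 31.8% of the annotated models of the members and 29.6% of those of all genes. The part that the number of annotated models had in these shares was not tested.

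**Figure D3:**
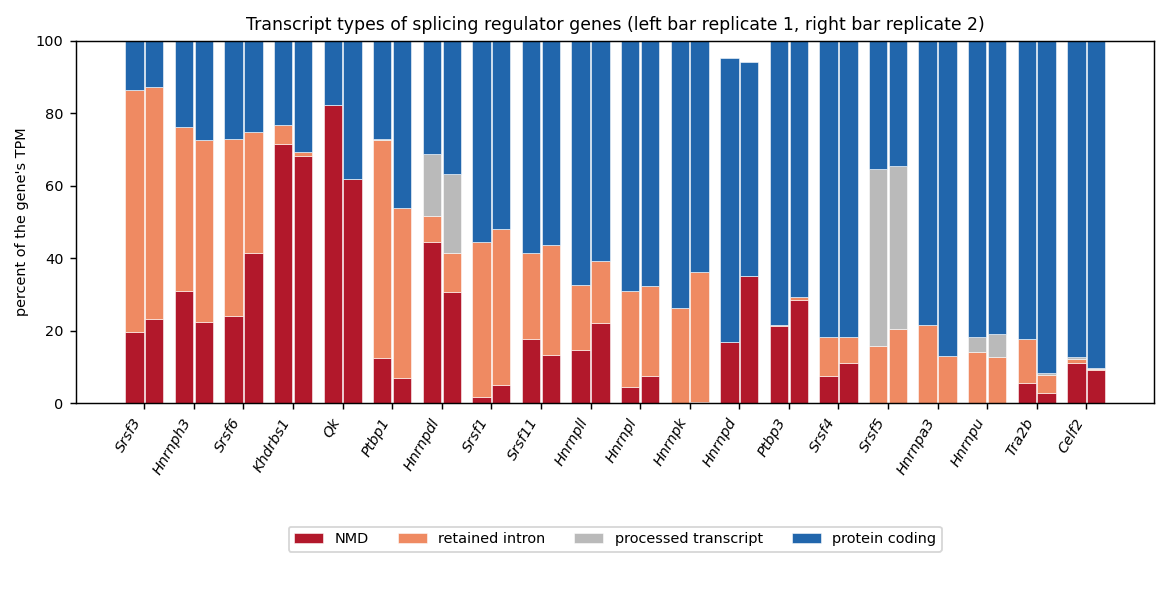
Percent of each gene's TPM by annotated transcript type, for the 20 splicing regulators in which NMD and retained intron transcripts took at least 10% (mean of both libraries), with replicate 1 as the left and replicate 2 as the right bar of each pair; the gap above Hnrnpd is a transcript without a type in M21. Srsf3, Hnrnph3, Srsf6, Khdrbs1, Qk and Ptbp1 are above 50% of TPM in both libraries. By reads Ptbp1 was at 42.2% in replicate 1 and 26.2% in replicate 2, and the others stayed above 50%.

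Among SR protein genes this share was 86.4% in replicate 1 and 87.3% in replicate 2 for Srsf3 and 72.8% and 74.9% for Srsf6. The largest Srsf3 transcript was the retained intron model Srsf3-203 with 53.8% and 51.4% of the gene's TPM, followed by the NMD model Srsf3-201 with 19.7% and 23.1% and the retained intron model Srsf3-204 with 12.1% and 11.6%. Srsf3-203 is only 893 nt long, and as a share of reads it took 24.6% and 23.4%. In Srsf6 the retained intron transcript Srsf6-204 (2897 nt) took 48.7% in replicate 1 and 33.6% in replicate 2, the transcript with the poison exon, Srsf6-201, 24.1% and 41.3%, and the coding transcript Srsf6-203 26.7% and 24.0%. By TPM the leading transcript of Srsf6 was thus a different one of these products in each library, while the coding share stayed within 3 points. By reads Srsf6-204 led in both libraries, with 51.4% in replicate 1 and 39.2% in replicate 2, against 13.8% and 26.1% for Srsf6-201. Srsf1 had 17.8% and 28.6% in the retained intron model Srsf1-203 and 25.1% and 14.4% in Srsf1-206, both under 1000 nt, against 29.3% and 23.3% in the coding Srsf1-202. By reads Srsf1-203 took 6.70% and 10.9%, and Srsf1-206 7.49% and 4.34%. All NMD and retained intron models of Srsf1 held 44.6% and 48.0% of its TPM, but 15.0% and 17.6% of its reads. Srsf11 had 14.1% and 17.4% in the retained intron Srsf11-203 and 16.0% and 12.1% in the NMD transcript Srsf11-206, with 24.8% and 34.0% in its coding lead Srsf11-201. Srsf5 had 14.7% and 19.7% in the retained intron transcript Srsf5-212, which with 2720 nt took 34.5% and 42.8% of the gene's reads.

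Srsf2, Srsf4, Srsf9 and Tra2b were led by coding transcripts, and Srsf10 and Srsf5 by short ones typed as processed. Srsf2-201 held 55.2% of Srsf2 in replicate 1 and 61.0% in replicate 2, and the coding Srsf2-206 40.7% and 31.9%. Srsf4-202 held 81.8% in both libraries, and Srsf9-201 98.4% and 97.9%. Srsf10 was dominated by Srsf10-210, a 677 nt transcript typed as processed, with 77.3% in replicate 1 and 59.9% in replicate 2; as a share of reads it took 39.6% and 22.2%. The short processed transcript Srsf5-211 (538 nt) and the coding Srsf5-201 held 34.3% and 27.0% of Srsf5 in replicate 1, against 33.1% and 26.5% in replicate 2. Tra2b was led by Tra2b-204 in replicate 1, with 44.2% there and 37.6% in replicate 2, and by Tra2b-201 in replicate 2, with 37.9% in replicate 1 and 54.2% in replicate 2.

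Ptbp1 was led in TPM by a retained intron model. This transcript, Ptbp1-214 (744 nt), had 171 TPM in replicate 1 and 34.2 TPM in replicate 2, which was 48.2% and 33.2% of the gene's TPM and 18.8% and 9.78% of its reads. The full-length coding transcript Ptbp1-206 followed with 20.3% and 23.0% of TPM and 44.2% and 37.9% of reads. Ptbp1-214 had 3405 expected counts with a posterior SD of 66.4 in replicate 1, and 794 with 43.1 in replicate 2, so the separation of these counts is larger than the uncertainty of read assignment. In Ptbp3 the coding Ptbp3-205 led in replicate 1 (34.7% there and 16.3% in replicate 2) and the NMD transcript Ptbp3-213 in replicate 2 (21.4% and 28.5%), while the long coding Ptbp3-201 took 26.3% and 27.0%. By reads Ptbp3-201 was the largest in both libraries, with 51.9% and 63.5%.

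In the hnRNP family, Hnrnph3 made mostly non-coding products: the retained intron Hnrnph3-205 held 32.04% in replicate 1 and 37.9% in replicate 2, the NMD transcript Hnrnph3-204 30.9% and 22.5%, and the retained intron Hnrnph3-206 13.2% and 12.2%. Hnrnpdl had its NMD transcripts Hnrnpdl-201 at 29.7% and 12.5% and Hnrnpdl-205 at 14.7% and 18.3%, and its coding Hnrnpdl-207 at 20.9% and 27.9%. Hnrnpll had 14.6% and 22.2% in the NMD transcript Hnrnpll-203, 11.6% and 11.3% in the retained intron Hnrnpll-204 and 54.5% and 54.8% in the coding Hnrnpll-205. Single short retained intron models held part of Hnrnpk (Hnrnpk-215, 16.3% and 25.9%) and Hnrnpa3 (Hnrnpa3-205, 21.7% and 13.2%), but only 4.29% and 6.76%, and 2.28% and 1.20%, of their reads. Hnrnpl had 31.1% and 32.4% of its TPM in these types, Hnrnpd 16.8% and 35.0%, and Hnrnpu 14.0% and 12.7%. No TPM fell in them in 8 hnRNP genes with several transcripts, among them Hnrnpab, Hnrnph1 and Hnrnpa1. A gene without any model of these types gives the same outcome, and the 2 cases were not separated. Hnrnpab was split between its coding transcripts Hnrnpab-203 (72.1% and 56.9%) and Hnrnpab-201 (25.8% and 40.9%). Coding leads with over 80% in both libraries were Hnrnpul1-201, Hnrnpc-201, Hnrnpa1-202, Hnrnpm-201 and Hnrnpu-201.

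Khdrbs1 and Qk were led in both libraries by transcripts typed as NMD targets. Khdrbs1-202 held 71.4% in replicate 1 and 68.1% in replicate 2 and the coding Khdrbs1-201 23.2% and 30.7%. The NMD-typed transcript of Qk held 82.3% in replicate 1 and 61.8% in replicate 2, and the coding Qk-201 17.7% and 38.2%. The M21 model of that transcript has 5832 nt and the quantified model 4658 nt, so its M21 type may not apply to what was quantified; the same holds for Srsf3-201 and Srsf3-204, and the other 21 of the 24 NMD or retained intron transcripts above 10% in both libraries have the same length in both annotations.

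Isoform use also differed between the libraries in some of these genes. By TPM the most abundant transcript was different in 10 of 39 members (25.6%), against 13.8% of all 8908 genes with several transcripts. By share of reads it was different in 6 of 39, and no share over all genes is given for that measure. The members had a median of 7 annotated transcripts, against 5 over all such protein-coding genes, and the part this had was not tested. The 10 that differed by TPM were Srsf1, Srsf6, Tra2b, Hnrnpd, Hnrnpdl, Hnrnpf, Hnrnpk, Hnrnpl, Hnrnpr and Ptbp3. In Hnrnpr the leading coding transcripts were close: Hnrnpr-204 held 53.2% in replicate 1 and 44.1% in replicate 2, and the coding transcript of 2683 nt 37.4% and 44.8%. In Hnrnpl the 502 nt coding model Hnrnpl-204 (31.5% and 22.6%) and the coding transcript of 1898 nt (25.2% and 34.9%) exchanged places, as did Hnrnpf-210 (29.99% and 29.5%) and Hnrnpf-209 (26.3% and 37.5%). Hnrnpk was led in replicate 1 by the 810 nt coding model Hnrnpk-213, with 35.4% there and 24.2% in replicate 2. A transcript share moved by 20 points or more in 3 of 39 members (7.69%), against 13.9% of all genes.

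The largest move was of Hnrnpd-207, a 478 nt coding fragment with 40.7% of the TPM of Hnrnpd in replicate 1 and 0% in replicate 2; it rests on 87.6 expected counts in replicate 1, 11.5% of the gene's reads. In replicate 2 the NMD transcript Hnrnpd-204 led, with 16.1% in replicate 1 and 30.4% in replicate 2, on 63.6 and 38.1 counts. Celf2 was next: Celf2-217 (1024 nt) held 16.2% in replicate 1 and 42.0% in replicate 2. Its deposited 95% credibility intervals of TPM, 6.37 to 14.4 in replicate 1 and 39.7 to 47.8 in replicate 2, do not overlap. By reads Celf2-217 took 4.53% and 13.8%, and the long coding Celf2-206 15.6% in replicate 1 and 36.1% in replicate 2. Qk moved by 20.5 points between its NMD-typed and coding transcripts, the coding one taking 23.9% of reads in replicate 1 and 47.5% in replicate 2. Smaller moves were seen in Ptbp3, whose 566 nt coding model Ptbp3-207 held 5.31% and 21.7%, in Nova2, in which a 5110 nt transcript took 17.7% in replicate 1 and 0% in replicate 2 (47 and 0 counts) beside Nova2-201 with 82.3% and 100%, and in Rbfox2, in which Rbfox2-204 held 19.4% and 2.64% while the lead Rbfox2-203 held 50.9% and 58.0%. The posterior SD of Rbfox2-204 was 277 on 2772 counts in replicate 1 and 154 on 211 counts in replicate 2.

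The leading transcripts of the other members were coding and the same in both libraries. Celf1-208 held 29.5% of Celf1 in replicate 1 and 33.6% in replicate 2, Mbnl1-215 29.4% and 30.4% of Mbnl1, Mbnl2-202 79.4% and 84.6% of Mbnl2, and Mbnl3-201 58.7% and 61.1% of Mbnl3. Hnrnpa3-203 held 69.4% and 81.5% of its gene, Hnrnph1-201 37.3% and 44.5%, Hnrnpa2b1-203 51.3% and 52.8%, and Hnrnph2-203 49.6% and 52.7%, with Hnrnph2-204 at 27.7% and 23.2%. Their order did not change although Celf1-208 had a posterior SD of 790 on 4068 counts in replicate 1. Hnrnpa0, Hnrnpul2, Khdrbs3, Nova1, Ptbp2, Srsf7 and Tra2a have a single transcript each in the files.

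The mixture of full-length transcripts was then expressed exon by exon. For each internal exon that other transcripts of the gene skip, inclusion is the TPM of transcripts with the exon as a percent of that TPM plus the TPM of transcripts that join its neighbours directly. Only transcripts of the same length in both annotations entered. With at least 5 TPM in both libraries and inclusion of 10 to 90% in both, 23 exons in 14 members remained. Inclusion differed by 20 points or more in 2 of 23 (8.70%), against 7.42% of 1118 such exons in all protein-coding genes, and the median absolute difference was 6.92 points, against 5.86 points over all. The share of members' exons that moved was thus near that of all cassette exons. Their lengths were not multiples of 3 in 15 of 23 (65.2%), against 43.6% over all.

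**Figure D4:**
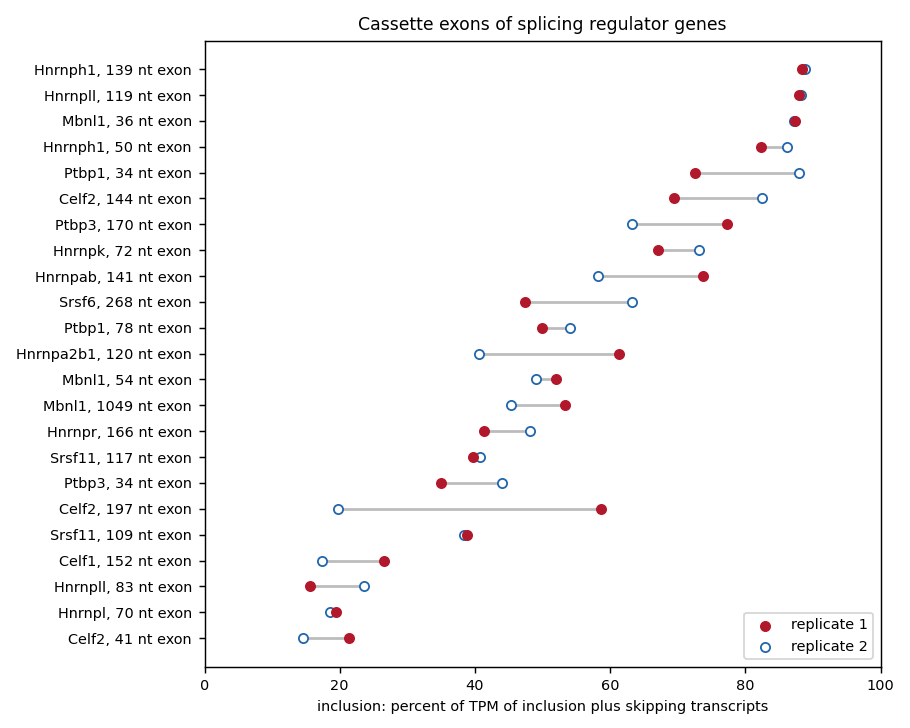
Inclusion of the 23 cassette exons of splicing regulator genes, in percent of the TPM of inclusion plus skipping transcripts, with replicate 1 as filled and replicate 2 as open points. The Celf2 exon of 197 nt and the Hnrnpa2b1 exon of 120 nt are over 20 points apart, and the Mbnl1 exons of 54 and 36 nt and the Hnrnpl and Srsf11 exons lie close together.

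The exon with the widest separation was the 197 nt exon of Celf2, included at 58.7% in replicate 1 and 19.8% in replicate 2; skipping rests on the single model Celf2-217. By reads it was included at 84.2% in replicate 1 and 45.6% in replicate 2, so its level depends on the measure. The 120 nt exon of Hnrnpa2b1 was included at 61.4% and 40.6%, leaving out the lead Hnrnpa2b1-203, whose length differs between the annotations. The Hnrnpab exon of 141 nt was included at 73.7% in replicate 1 and 58.2% in replicate 2. Other frame-keeping exons were closer: the Hnrnpk exon of 72 nt was included at 67.1% and 73.2%, the Ptbp1 exon of 78 nt, known to alter the repressor's activity, at 49.9% and 54.0%, and the Mbnl1 exons of 54 nt, known to affect where the protein resides, at 52.0% and 49.1%, and of 36 nt at 87.3% and 87.2%. The Mbnl1 54 nt exon was at 31.9% and 30.8% by reads, so its level depends on the length correction although its closeness between libraries does not.

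Among exons tied to NMD, the poison exon of Srsf6 was included at 47.5% in replicate 1 and 63.3% in replicate 2 when its NMD transcript is set against the coding transcript alone. The Hnrnpl poison exon stood at 19.4% and 18.5%, that of Hnrnpll at 15.6% and 23.5%, and the 41 nt Celf2 exon at 21.4% and 14.5%. The 109 nt exon of Srsf11 stood at 38.8% and 38.4% by TPM and at 27.6% and 23.0% by reads, with 33.2% and 37.6% of the gene's TPM left out for unequal length. The 34 nt exon of Ptbp1 was included at 72.5% in replicate 1 and 87.9% in replicate 2, so transcripts with the NMD-triggering skip took the remainder; by reads its inclusion was 90.4% and 96.2%. The skip rests on 1299 counts in replicate 1 and 259 in replicate 2, of which the 848 nt model Ptbp1-207 had 893 and 157. Srsf6 poison exon inclusion by reads was 28.4% and 42.9%, in the same direction. By TPM the difference between libraries was 15 points or more in both genes, and by reads it was smaller in both. Each comes from 1 library a side, so it was not tested against biological variation.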

How the data were processed

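RNA over 200 nt was selected for polyA tails and sequenced as stranded paired reads of 76 nt, per the labels. The deposited gene and transcript tables hold expected counts, in which the authors' program (not named in the sources used here) divided reads among matching features, with deposited TPM and FPKM values and, per transcript, the percent of the gene's TPM it took. Alignment was to mm10 with GENCODE M4, per the deposited notes; transcript types, names and exons are from GENCODE M21, and 359 of the 391 member transcripts have the same length in both. Symbols were matched by gene identifier.

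Expected counts were rounded and scaled with TMM factors (edgeR 4.0.16, R 4.3.3) over annotated genes without spike-ins. Ratios have exact Clopper-Pearson 95% intervals of the count split (scipy 1.17.1), which cover counting error only. The calls were run on simulated counts with counting error only, in which 200 genes had a planted change larger than the bound. That run holds no variation between animals or libraries and cannot show how the calls behave under it. The members, families and gene lists were chosen with earlier results of these data known. All 56 members are named; transcripts are named if first in either library (members at 1 TPM or more in both), second with a mean of at least 25%, among the 12 largest share differences, or NMD or retained intron with at least 10% in both; of the other lists, the 3 highest by mean TPM and all called genes are named, except an item that is not reported here. Other transcripts, and the cassette exons described, were chosen after their values were seen. The alternatives tried covered scaling, count and TPM minimums, the fold bound, posterior means, FPKM, and the measure of transcript share. The junction and contig tables on mm9 were not used here.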

Additional observations from a re-analysis of the deposited data

How the results depend on the processing

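With DESeq2 size factors, posterior mean counts or a minimum count of 10, the counts of members over 2-fold apart stayed within 1.5 times of 7 in replicate 1 and 1 in replicate 2. With total counts they were 20 and 0, with spike-in counts 19 and 0, with the ratio of TPM at a pseudocount of 0.1 they were 29 and 0 and at a pseudocount of 1 they were 28 and 0; a minimum count of 500 left 4 in replicate 1. A bound of 1.5-fold gave 17 and 3, and a bound of 4-fold 3 and 0. No share of all genes called is given for these bounds, the count minimums, the posterior mean counts or the TPM ratios. The counts at those settings therefore do not set the members apart from all genes. The median log2 ratio of members was 0.99 with total counts, 0.93 with spike-in counts, and 1.11 and 1.04 with TPM at the smaller and the larger pseudocount; on TPM at 0.1 the median of all genes was 0.60. No called member changed sign under any of these settings. Between 41 and 48 members passed TPM minimums of 0.1 to 5 or the FPKM minimum in both libraries, and without replicate 1 the count was 46 and without replicate 2 it was 51; summed TPM was 2043 without replicate 1 and 4104 without replicate 2. By share of reads 6 members differed in their leading transcript. The median NMD and retained intron share by reads was 4.55% in replicate 1 and 4.16% in replicate 2. As the median of the means it was 6.00%, against 0.721% over all such protein-coding genes. By TPM the members' median share was 0.115% for NMD alone and 17.4% for every transcript not typed as coding. It was 7.75% without replicate 1 and 12.3% without replicate 2. A share moved by 10 points in 20 members and by 30 points in 1. The cassette exon alternatives (reads in place of TPM, 10 TPM, any inclusion), chosen after seeing the data, left 2 exons 20 points apart in each case. No paired analysis was possible because there is a single group of 2 libraries, and ratios cannot be computed with either left out. Counts of only 2 or 3 in replicate 2 give wide intervals for Esrp1, Esrp2, Rbfox3 and Srsf12.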
